A study of Mus musculus with 12 samples.

Results

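The genes described here serve protein folding in the endoplasmic reticulum (ER) and the unfolded protein response, and they were followed in 12 mouse heart RNA libraries. They were chosen by name: a list of 35 gene symbols was looked up in the table of 17397 genes, and all 35 were found. By role, 12 encode chaperones and co-chaperones, 5 enzymes of disulphide formation, 4 the stress sensors and the transcription factor Xbp1, 8 components of ER-associated degradation, 4 parts of the entry route into the ER, and 2 regulatory subunits of the eIF2α phosphatase. The default filter on low counts kept 34 of them in every comparison. Derl3, a degradation component, had at most 5 counts in a library (0.539 CPM) and was not tested. CPM here is the count scaled to library size with the trimmed mean of M values.

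All mice were wild-type (WT) male C57BL/6J, 8 weeks old when they were divided, and each of 4 groups had 3 libraries. Control mice were labelled saline and stayed in their cages. Trained mice ran on a treadmill on 5 days a week for 4 weeks, reaching 15 m/min in the first week, and in later weeks 12 m/min for 35 min after a slow start of 5 min (6 m/min). Tumour mice were untrained and were given 100000 cells of the mouse melanoma line B16F10 by tail vein injection from week 2 onward, and tumour trained mice had both the cells and the running. No label says that trained mice were given saline. The title concerns heart function under low-intensity training in melanoma cachexia. Whether each library comes from its own mouse is not labelled. The p-values therefore reflect the spread between these 12 samples alone.

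The ER folds secreted and membrane proteins. Hspa5 (BiP) and Hsp90b1 (GRP94) bind unfolded chains, the lectins Calr and Canx hold glycoproteins, and disulphide isomerases set cysteine pairs that Ero1l keeps oxidised. When unfolded chains pile up, the sensors Ern1 (IRE1α), Atf6 and Eif2ak3 (PERK) raise chaperone and degradation genes and slow translation. Ppp1r15a and Ppp1r15b guide the phosphatase that restores translation. In heart muscle this system works beside the sarcoplasmic reticulum, and ischaemia and pressure load are known to engage it.

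Between 8843909 and 13344847 counts were held by a library, which makes 3 counts 0.225 to 0.339 CPM. The tumour libraries were unlike each other. The pigment-lineage genes Sox10, Pmel, Tyrp1, Dct and Mlana held 1.08% of counts in tumour 1, 0.496% in tumour 2 and 0.00166% in tumour 3, against at most 0.00104% in the other groups. The summed level of 10 cardiomyocyte genes was 22640 CPM in tumour 1 and 62970 CPM in tumour 2, against 117600 CPM in tumour 3 and 113500 to 126100 CPM in the other 9 libraries. Tyrp1 was at 0 in the 9 libraries of the other groups. In bulk RNA, fewer cells of a type and less RNA per cell cannot be told apart. Because of these differences, levels of the 35 genes are given for tumour 3 apart from tumour 1 and 2. The RNA protocol names livers while the tissue label says heart. The hepatocyte markers summed to at most 6.32 CPM, and Myh6, the main heart myosin gene, ranked first in 11 of 12 libraries.

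The promoters of 28 of the 35 genes were found in the RefSeq table (GRCm38.p6, 250 bases before to 50 bases after the start), and they are shown first because they hold the short elements through which the response is known to act. The ER stress element was searched as CCAAT, 9 bases of any kind, then CCACG, on both strands. It was found in 9 of the 28 genes (32.1%: Calr, Canx, Creld2, Derl3, Dnajc3, Hsp90b1, Hspa5, Pdia6 and Syvn1), against 37 of all 27025 genes in the table (0.137%) and 0.119% of its 32851 promoters. A second element, ATTGG, 1 base of any kind, then CCACG, was found in Herpud1 and Dnajb11 (7.14% of the 28 against 0.0444% of all genes). The UPR element TGACGTGG was found in 0 of the 28 (0.714% of all genes). The amino acid response element, TGATG, 1 base, then AA, was found in Herpud1 alone (3.57% against 4.51%). A match is a description of letters, not of binding, and no match says only that the letters are not in the window. The genes were chosen by name as genes of this response, so their excess over all genes follows from that choice. It is not a finding of these data.

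The promoters of 4 genes on which the results below turn are printed from 5′ to 3′, with the ER stress element or the second element in capitals. They are Hspa5 (chr2:34771840-34772139, plus strand), Hsp90b1 (chr10:86705395-86705694, minus strand), Pdia6 (chr12:17266339-17266638, plus strand) and Herpud1 (chr8:94386179-94386478, plus strand).
Hspa5: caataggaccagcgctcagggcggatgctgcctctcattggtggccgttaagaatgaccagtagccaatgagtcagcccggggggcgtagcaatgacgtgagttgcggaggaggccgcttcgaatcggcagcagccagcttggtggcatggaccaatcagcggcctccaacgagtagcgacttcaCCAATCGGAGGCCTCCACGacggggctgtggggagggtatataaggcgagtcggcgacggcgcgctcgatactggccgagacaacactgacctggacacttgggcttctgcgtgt
Hsp90b1: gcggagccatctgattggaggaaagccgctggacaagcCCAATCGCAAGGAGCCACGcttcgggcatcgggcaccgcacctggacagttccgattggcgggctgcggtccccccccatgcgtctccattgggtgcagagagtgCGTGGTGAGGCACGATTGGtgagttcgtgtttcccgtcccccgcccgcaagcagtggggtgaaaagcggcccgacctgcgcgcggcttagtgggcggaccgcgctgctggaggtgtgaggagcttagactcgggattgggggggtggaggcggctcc
Pdia6: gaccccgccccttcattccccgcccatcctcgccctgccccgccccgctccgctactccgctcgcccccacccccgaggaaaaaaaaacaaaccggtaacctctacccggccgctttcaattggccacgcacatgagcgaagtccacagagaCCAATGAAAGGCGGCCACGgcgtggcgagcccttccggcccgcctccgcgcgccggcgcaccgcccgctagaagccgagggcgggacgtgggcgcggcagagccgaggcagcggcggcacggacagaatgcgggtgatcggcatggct
Herpud1: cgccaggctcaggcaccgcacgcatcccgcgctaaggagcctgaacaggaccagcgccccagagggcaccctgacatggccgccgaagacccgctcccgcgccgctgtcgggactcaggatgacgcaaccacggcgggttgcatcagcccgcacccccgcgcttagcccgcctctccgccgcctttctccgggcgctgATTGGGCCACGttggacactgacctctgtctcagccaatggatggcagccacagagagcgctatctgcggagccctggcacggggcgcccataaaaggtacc
Hsp90b1 holds the element in both orientations, the first 212 bases and the second 107 bases before the start. In Hspa5 it begins 65 bases and in Pdia6 98 bases before the start. In Herpud1 the second element begins 52 bases before the start and the amino acid response element, not capitalised, begins 112 bases before it on the opposite strand.

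In control hearts these genes were expressed over a wide range. Per kilobase of the longest GENCODE M21 transcript, Calr was at 181 CPM, Hspa5 at 156, Herpud1, a membrane adaptor of the degradation complex, at 136 and the disulphide isomerase P4hb at 101. The sensors Eif2ak3 and Ern1 lay at 2.32 and 1.42 CPM per kilobase. Together the 35 genes summed to 3437 to 3578 CPM in control and 3257 to 3765 CPM in trained hearts. The sum was 5963 CPM in tumour 1, 5360 in tumour 2 and 3734 in tumour 3. In tumour trained hearts it was 3806, 4304 and 4291 CPM.

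**Figure D1:**
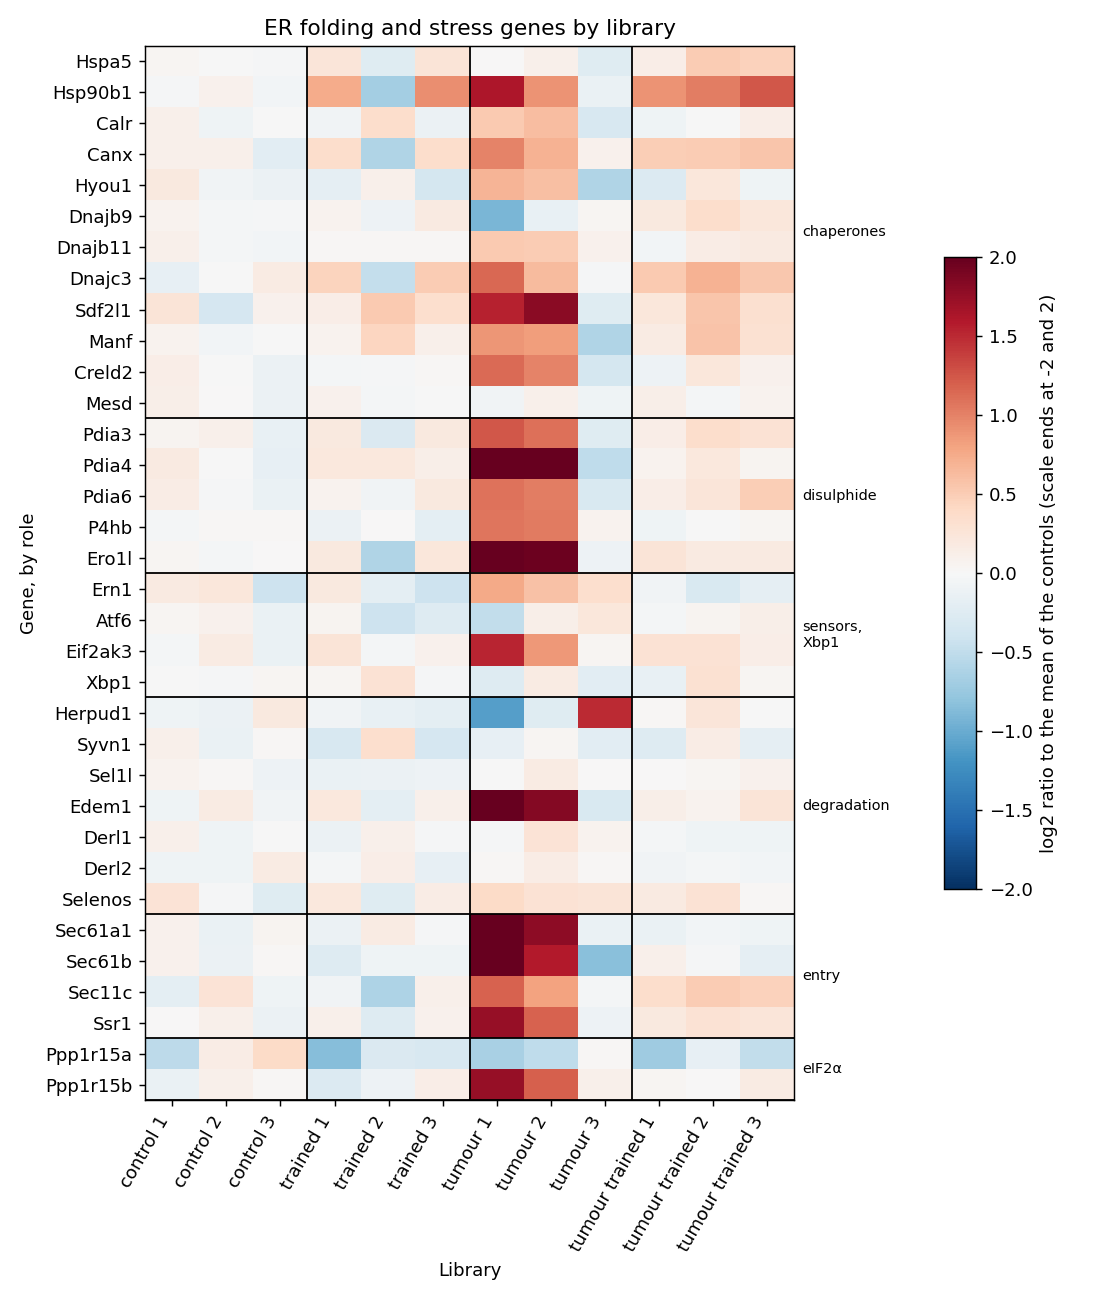
Log2 ratio of each of the 34 tested genes (rows, by role) to the mean of the controls in each library (columns, 3 per group); red is higher, blue lower, and the colour scale ends at -2 and 2. Tumour 1 and 2 are red over most of the chaperone, disulphide and entry genes, while tumour 3 is red mainly at Herpud1.

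The untrained tumour group was first compared with controls in 1 fit of all 12 libraries, which asks what melanoma injection did without training. Sec61a1, the channel subunit of the ER translocon, Ero1l, the ER thiol oxidase, and Ppp1r15b, the constitutive phosphatase subunit, rose, and no gene of the 34 fell. That is 3 of 34 higher, where edgeR called 5.33% of all 12778 genes tested higher and 1.46% lower. The median log2 difference of the 34 was 0.61, against 0.11 over all genes, and 19 of 34 (55.9%) had an unadjusted p below 0.05, against 34.4% of all genes. All 3 adjusted p-values lay just under 0.05. Sec61a1 and Ero1l were called in 7 and Ppp1r15b in 5 of 23 alternatives. Leaving out tumour 3 gave 22 genes higher, where 30.2% of all genes were. Leaving out any 1 of the other 11 libraries gave 0, where only 4 to 114 of all genes were higher.

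Sec61a1 was at 46.0, 39.4 and 44.9 CPM in control 1, 2 and 3 and at 230, 152 and 39.5 CPM in tumour 1, 2 and 3. Tumour 1 and 2 were far above every control, and tumour 3 lay within the controls' range. The fitted log2 difference was 1.70 ± 0.44 (SE, edgeR adjusted p = 0.0467). Ero1l was at 28.0, 26.5 and 27.4 CPM in controls and at 318, 108 and 25.5 CPM in the tumour libraries. Again tumour 1 and 2 were high, and tumour 3 was just below the lowest control (log2 2.48 ± 0.64, adjusted p = 0.0465). Ppp1r15b was at 33.2, 39.3 and 37.2 CPM in controls and 123, 84.7 and 39.2 CPM in tumour libraries, with tumour 3 inside the controls' range (log2 1.18 ± 0.31, adjusted p = 0.0478).

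Library by library, 23 of the 34 genes (67.6%) in tumour 1 and 28 (82.4%) in tumour 2 exceeded every control, where 47.7% and 45.0% of all genes did. Below all controls were 6 (17.6%) in tumour 1 and 2 (5.88%) in tumour 2, against 42.5% and 33.9%. The 2 low genes shared by both were Dnajb9, an Hspa5 co-chaperone, and Herpud1. In tumour 3 the picture turned. Of the 34, 4 genes (11.8%) cleared every control upward, where 31.9% of all genes did, and 14 (41.2%) lay under every control, where 29.0% did. Of the 34, 11 were above every control in both tumour 1 and tumour 2 and below every control in tumour 3, namely Hsp90b1, Calr, Hyou1, Manf, Creld2, Pdia3, Pdia4, Pdia6, Ero1l, Edem1 and Sec61b. That is 32.4%, where 9.49% of all genes had this order. In both tumour 1 and 2, 27 of 34 (79.4%) exceeded tumour 3, where 44.4% of all genes did. Tumour 1 exceeded tumour 2 in 21 (61.8%), where 49.3% of all genes did.

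These 11 span 4 roles: 5 are chaperones, 4 disulphide enzymes, and Edem1 and Sec61b serve degradation and entry. The lectin Calr was at 422, 371 and 393 CPM in controls and at 569, 606 and 315 CPM in tumour 1, 2 and 3. Hyou1, a large Hspa5-like chaperone, was at 72.3, 60.1 and 58.5 CPM in controls and at 102, 96.1 and 41.5 CPM in the tumour libraries. In both genes tumour 1 and 2 cleared the highest control and tumour 3 lay under the lowest. The disulphide isomerase Pdia3, which works with Calr and Canx on glycoproteins, was at 186, 190.4 and 159.8 CPM in controls and 421, 382 and 149.8 CPM in the tumour libraries. Pdia6, another isomerase, was at 105, 93.2 and 86.3 CPM in controls and 201, 193 and 76.3 CPM in tumour libraries. In both isomerases too, tumour 1 and 2 were above and tumour 3 below every control. Outside the 11, Sdf2l1, an Hspa5 co-factor, reached 17.3 and 21.0 CPM in tumour 1 and 2 and spanned 4.38 to 8.52 CPM in the other 10 libraries. Mesd, a chaperone for receptors of the LDL receptor family, had no such excess and stayed between 42.0 and 49.6 CPM in all 12 libraries.

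**Figure D2:**
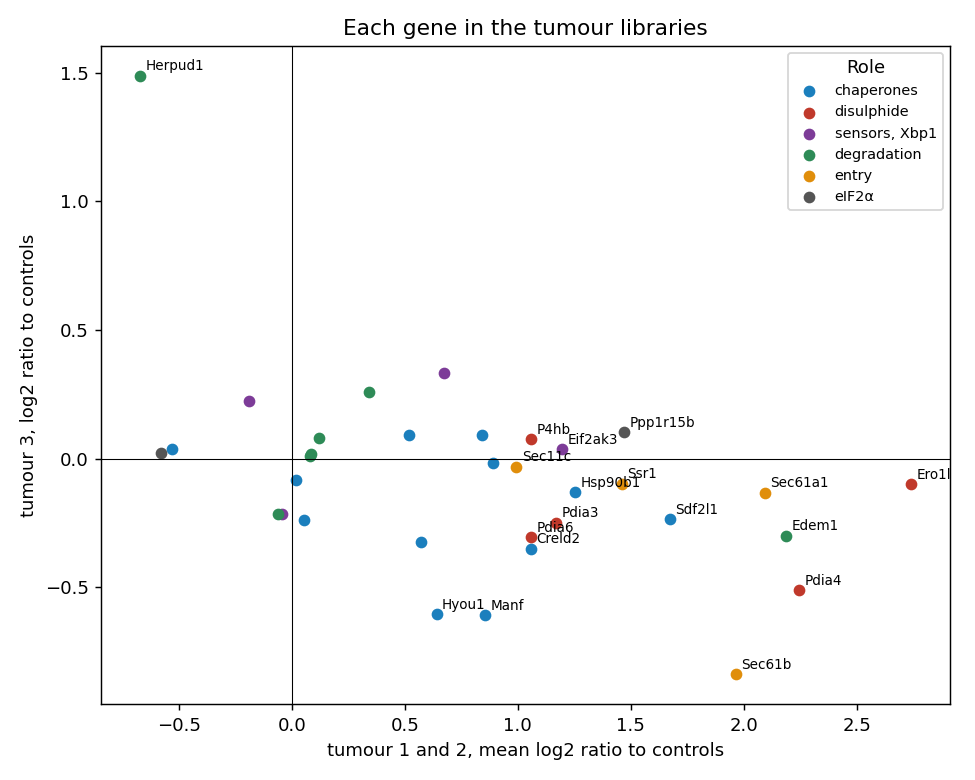
Mean log2 ratio to the controls in tumour 1 and 2 (horizontal) against that in tumour 3 (vertical) for each of the 34 tested genes, coloured by role. Most points lie to the right of 0 and near or below it in tumour 3; Herpud1 stands alone at the upper left.

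Medians by role follow, and the differences between roles were not tested. Entry genes had a median log2 ratio to controls of 2.04 in tumour 1, 1.38 in tumour 2 and -0.12 in tumour 3. For disulphide genes the medians were 1.24, 1.10 and -0.25, and for chaperones 0.79, 0.63 and -0.18. The medians of degradation genes stayed nearer to the controls, at -0.01, 0.17 and 0.02, but single genes did not. Edem1 was at 2.54 and 1.84 in tumour 1 and 2, and Herpud1 at -1.10 in tumour 1 and 1.49 in tumour 3. The 4 sensor genes, Xbp1 included, had medians of 0.25, 0.38 and 0.13, positive in tumour 3 too, and the 2 phosphatase subunits 0.55, 0.35 and 0.06. Those 2 subunits went opposite ways in tumour 1 and 2, Ppp1r15b at 1.74 and 1.20 and Ppp1r15a at -0.65 and -0.51. The medians over all genes tested were 0.09, 0.08 and 0.02.

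With tumour 3 left out of the same fit, 22 of 34 genes (64.7%) were higher than in controls and 2 (5.88%) lower, where edgeR called 30.2% of all 13289 genes higher and 22.8% lower. Edem1, which hands misfolded glycoproteins to degradation, was at 16.4, 19.6 and 16.7 CPM in controls while tumour 1 and 2 had 104 and 63.8 CPM and tumour 3 had 14.1 CPM. Pdia4, a disulphide isomerase, was at 39.2, 34.4 and 30.8 CPM in controls and at 192, 144 and 24.2 CPM in tumour 1, 2 and 3. Both were higher in tumour 1 and 2 than in any control and below every control in tumour 3. Without tumour 3 the log2 differences were 2.22 ± 0.20 for Edem1 (edgeR adjusted p = 1.24e-05) and 2.23 ± 0.15 for Pdia4 (2.06e-06). In the fit of all 12 libraries neither was called, at 1.80 ± 0.50 for Edem1 (edgeR adjusted p = 0.0521) and 1.80 ± 0.51 for Pdia4 (0.0553). Edem1 and Pdia4 were singled out after their values were seen, and the library left out is the one in which both were low. Their p-values without tumour 3 are therefore not independent evidence. Dnajb9 and Herpud1 were the 2 that fell, by 0.52 and 0.65 on the log2 scale (adjusted p = 0.0418 and 0.0292).

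Hspa5, the main ER chaperone, lay near its controls in the same libraries. It was at 588, 571 and 564 CPM in controls and at 579, 615 and 486 CPM in tumour 1, 2 and 3. Tumour 1 was among the controls, tumour 2 above and tumour 3 below them, and the log2 difference was -0.03 ± 0.20 in the fit of 12 libraries (edgeR adjusted p = 0.924). Xbp1, the transcription factor that Ern1 activates by splicing, was at 100.5, 98.6 and 103 CPM in controls and 84.4, 113 and 86.8 CPM in the tumour libraries (log2 -0.08 ± 0.17, adjusted p = 0.73). Gene-level counts do not show its splicing. Scaled to library size alone, the differences of Hspa5 and Xbp1 were 0.20 and 0.13, so their sign depends on the scaling.

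Among the sensors, Ern1 was at 11.0, 11.4 and 7.15 CPM in controls and at 16.7, 14.8 and 12.3 CPM in tumour 1, 2 and 3. Every tumour library was above every control, which among the 34 held for 2 genes (5.88%) and among all genes for 14.1%, and the difference did not pass (log2 0.57 ± 0.24, edgeR adjusted p = 0.118). The other such gene was P4hb, at 283, 293.9 and 293.5 CPM in controls and 609.6, 599 and 306 CPM in tumour libraries (adjusted p = 0.0568). Eif2ak3 was at 10.1, 11.8 and 9.46 CPM in controls and 30.8, 19.5 and 10.7 CPM in tumour libraries, so that tumour 3 was within the controls (log2 0.97 ± 0.31, adjusted p = 0.0682). Atf6 was at 182, 188 and 160 CPM in controls and at 125, 190 and 206 CPM in the tumour libraries. Tumour 1 was below and tumour 2 and 3 above the controls (log2 -0.02 ± 0.20, adjusted p = 0.956), and the sign was positive when scaled to library size alone (0.16).

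Ppp1r15a, the stress-induced phosphatase subunit, was at 41.7, 66.5 and 78.7 CPM in control 1, 2 and 3, and at 38.3, 42.3 and 61.2 CPM in tumour 1, 2 and 3. It was at 33.2, 49.2 and 48.0 CPM in trained and 36.6, 53.9 and 42.8 CPM in tumour trained hearts. Control 2 and 3 were the highest of the 12 libraries and control 1 lay among the rest. The tumour difference from controls was -0.40 ± 0.27 on the log2 scale (edgeR adjusted p = 0.287). A list of 20 early response genes such as Fos and Egr1 had the same 2 libraries apart, with a summed level of 660 CPM in control 1 against 2665 and 2773 CPM in control 2 and 3 and 602 to 1386 CPM elsewhere. Without control 2 and 3 the difference of Ppp1r15a was 0.16.

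Other genes of the pathway came from lists of 127 genes, of which 124 were tested. In tumour against control 11 of the 124 (8.87%) rose and 1 (0.806%) fell, where edgeR called 5.33% of all genes higher and 1.46% lower. In the list of 21 tested genes around PERK, ATF4 and its targets, 6 were higher and 1 lower, the transcription factor Atf5 (log2 -0.56 ± 0.15, edgeR adjusted p = 0.0478), which was named after its value was seen. Controls had Atf5 at 47.1 to 59.4 CPM, and tumour 1, 2 and 3 had it at 35.2, 34.6 and 36.3 CPM, so all 3 tumour libraries were below every control. The serine synthesis genes Phgdh (log2 5.05 ± 1.08, edgeR adjusted p = 0.039) and Psat1 (4.30 ± 0.85), the amino acid transporter Slc7a5 (4.00 ± 0.83) and the folate enzyme Mthfd2 (3.88 ± 0.97, adjusted p = 0.0451) led them. Phgdh reached 129 and 46.0 CPM in tumour 1 and 2 but 1.29 CPM in tumour 3, below the 1.68 to 1.91 CPM of controls. Trained hearts, at 1.17 to 1.65 CPM, were below the controls as well. Mthfd2 too lay below its controls in tumour 3 (1.75 against 2.04 to 4.50 CPM), while Psat1 (3.97 against 2.53 to 2.94 CPM) and Slc7a5 (8.86 against 6.89 to 7.46 CPM) lay above theirs. Of 33 other folding genes 4 rose: Fkbp11 (log2 2.08), Fkbp10 (1.24), Tmx1 (0.80) and the ER peroxiredoxin Prdx4 (0.67). All 4 were above every control in tumour 3 as well as in tumour 1 and 2. In tumour 3 Fkbp11 was at 3.14 CPM (controls 2.49 to 2.84), Fkbp10 at 41.1 (22.3 to 26.4), Tmx1 at 84.4 (52.9 to 56.9) and Prdx4 at 20.8 CPM (15.6 to 18.1). None of the 4 was called in tumour 3 against control. Of 30 other entry and glycosylation genes, Rpn1, a subunit of the oligosaccharyl transferase, rose (1.47 ± 0.39, adjusted p = 0.0471), with tumour 3 inside the controls' range (79.7 against 77.9 to 90.4 CPM). None of 25 other degradation genes and none of 15 other regulators was called, with medians of 0.08 and 0.21.

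Markers of other cell types were also shifted in tumour 1 and 2. The endothelial list summed to 274 and 738 CPM, against 1057 to 1078 CPM in controls, and the fibroblast list to 1409 and 2314 CPM, against 905 to 1224 CPM. Within the fibroblast list Col1a1, Col1a2, Col3a1 and Postn were above every control in both libraries. Dcn, Lum and Pdgfra were below every control in tumour 1 (209, 24.6 and 16.6 CPM). In tumour 2 Dcn and Pdgfra were among the controls and Lum was just above the highest. The B and plasma cell list, whose cells are rich in ER, summed to 36.7 and 31.9 CPM against 8.66 to 12.0 CPM. Nearly all of it was Sdc1 (32.5 and 28.0 CPM), and its other genes were low and went different ways. Jchain (2.42 and 1.32 CPM) and Cd79a (1.42 and 1.25 CPM) were above every control. Mzb1 (0.118 and 0.416 CPM) and Cd79b (0.177 and 0.485 CPM) were below every control. Ms4a1 (0.118 and 0.485 CPM) was among the controls in tumour 1 and above them in tumour 2. In tumour 1 Mzb1 and Ms4a1 lay under 3 counts. The macrophage list was at 193 CPM in tumour 1, among the controls (173 to 213 CPM), and at 316 CPM in tumour 2, above them. The erythrocyte list was below every control in both (330 and 429 CPM against 469.9 to 1248 CPM). The adipocyte list was below the controls in tumour 1 (332 CPM) and among them in tumour 2 (476 CPM, controls 454.5 to 599.2 CPM). The part of these cell types, and that of the melanoma cells, in the differences of tumour 1 and 2 from controls was not tested.

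To look at the tumour group without the pigment-rich libraries, tumour 3 was compared with controls in a fit of the 10 libraries left without tumour 1 and 2. Tumour 3 is then alone in its group, and its spread is assumed to be that of the other groups. Herpud1 rose, and no other gene of the 34 was called, where edgeR called 0.870% of all 12995 genes higher and 0.531% lower. The median log2 difference of the 34 was -0.08, against 0.02 over all genes.

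Herpud1 was at 249, 243.5 and 304 CPM in control 1, 2 and 3, at 252, 239 and 231 CPM in trained 1, 2 and 3, and at 267, 311 and 264 CPM in tumour trained 1, 2 and 3. In tumour 1, 2 and 3 it was at 123, 223 and 742 CPM. Tumour 3 was above each of the other 11 libraries, and tumour 1 and 2 were the lowest of the 12. The log2 difference of tumour 3 from controls was 1.49 ± 0.14 (SE, edgeR adjusted p = 0.000553), and it was called in each of 19 alternatives, between 1.43 and 1.60. It rests on 1 library.

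No other tested gene with either ER stress element was above all controls in tumour 3. Dnajb11, which carries the second element, was at 59.9, 54.5 and 53.9 CPM in controls and 59.8 CPM in tumour 3. Of the 8 tested genes with the ER stress element, 6 were below all controls in tumour 3 and 0 above, against 6 below and 3 above among the 19 tested genes whose promoter lacks it. In tumour 2, 7 of the 8 and 14 of the 19 were above all controls, and in tumour 1, 6 of the 8 and 12 of the 19. Among all genes tested 29.0% were below and 31.9% above all controls in tumour 3, and 45.0% and 47.7% were above them in tumour 2 and 1. These counts describe 8 and 19 genes in single libraries and were not tested.

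No other degradation gene of the 34 was called in tumour 3. Sel1l, the Syvn1 partner of the retrotranslocation complex, was at 110.2 CPM in tumour 3 and 102 to 116 CPM in controls. Syvn1, the ubiquitin ligase itself, was at 32.5 CPM against 34.5 to 40.5 CPM. Derl1 and Derl2, membrane components of the same complex, were at 100.4 and 38.4 CPM, against 89.5 to 102 and 35.7 to 42.5 CPM. The sensors Ern1, Atf6 and Eif2ak3 had log2 differences of 0.33 ± 0.28, 0.23 ± 0.17 and 0.04 ± 0.20 in tumour 3 (edgeR adjusted p = 0.74, 0.649 and 0.973). Those of Hspa5, Xbp1 and Ppp1r15a were -0.23 ± 0.20, -0.21 ± 0.18 and -0.02 ± 0.33 (adjusted p = 0.735, 0.746 and 0.994).

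**Figure D3:**
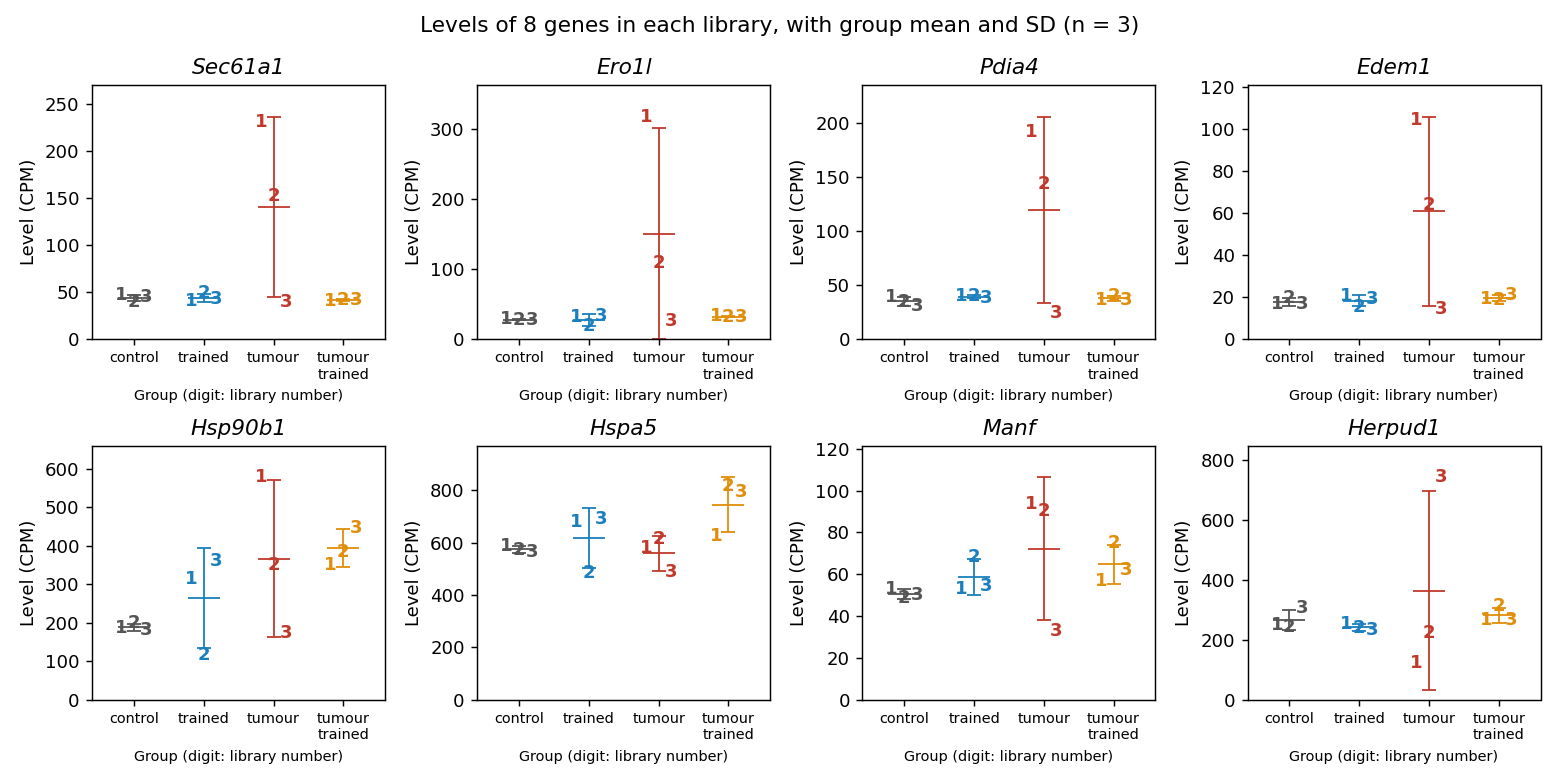
Level in CPM of 8 genes in each library (digits give the library number), with the group mean and SD (n = 3 per group, bars cut at 0). In Sec61a1, Ero1l, Pdia4 and Edem1 tumour 1 and 2 stand far above all others and tumour 3 lies with or just below the controls; in Herpud1 tumour 3 alone stands above, at 742 CPM.

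Some secretory genes were at their lowest of the 12 libraries in tumour 3. Sec61b, the small subunit of the translocon, was at 11.7, 10.1 and 11.1 CPM in controls and 5.90 CPM in tumour 3. Manf, a secreted ER stress protein, was at 52.9, 48.4 and 50.2 CPM in controls and 32.9 CPM in tumour 3. Both were clear of the controls, at log2 differences of -0.88 ± 0.21 and -0.61 ± 0.20, and neither passed (edgeR adjusted p = 0.0757 and 0.192). Both fell when trained 2, a library of neither group that stands apart, was left out (adjusted p = 0.0249 and 0.0322). That made 2 of 34 (5.88%) lower and 1 (2.94%) higher, where edgeR called 2.44% of all 12940 genes lower and 3.36% higher. With GC correction in addition, which takes a smooth curve of GC content out of each library, Pdia4 fell too (-0.55 ± 0.14, edgeR adjusted p = 0.033). That made 3 of 34 (8.82%) lower and 1 higher, beside 3.09% of all genes lower and 3.66% higher. Of the 124 other pathway genes 1 was called in tumour 3, Serpinh1, the collagen chaperone. It was at 291, 249 and 269 CPM in controls and 119.9 CPM in tumour 3. It fell by 1.16 ± 0.18 on the log2 scale (adjusted p = 0.01).

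Other markers in tumour 3 were near the controls, with exceptions. The cardiomyocyte list was at 117600 CPM against 118000 to 121700 CPM in controls, and the endothelial list at 963 against 1057 to 1078 CPM. The melanocyte list was at 81.0 CPM against 56.6 to 67.3 CPM, most of it Mitf (63.1 CPM), and all 7 of its genes were above every control. Tyrp1, at 0 in the other groups, was at 1.38 CPM, and Pmel was at 2.03 CPM against at most 0.389 CPM in controls. The adipocyte list was at 951 CPM against 455 to 599 CPM, all but a trace of it Fabp4 (950.3 CPM), while the adipocyte genes Adipoq and Plin1 were at 0. The erythrocyte list was at 1542 CPM against 469.9 to 1248 CPM, and the macrophage list at 167 against 173 to 213 CPM. The fibroblast list was at 1021 CPM, inside the 905 to 1224 CPM of controls, but its genes went different ways. Col1a1 (67.5 CPM), Col1a2 (100.4 CPM), Col3a1 (111.6 CPM) and Postn (12.4 CPM) were below every control. Dcn (639 CPM) was above every control, and Lum and Pdgfra were among them. The part of these shifts in the levels of Herpud1, Serpinh1 and the other genes was not tested.

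Tumour trained hearts were next set against tumour hearts, which differed in training and also in melanoma transcripts. The 5 pigment-lineage genes held 1.08%, 0.496% and 0.00166% of counts in tumour 1, 2 and 3. In tumour trained libraries they held at most 0.00088%. Training and melanoma content therefore cannot be told apart in this comparison or in the interaction below. In the fit of 12 libraries 4 of the 34 genes fell and 0 rose, where edgeR called 7.25% of all genes lower and 1.79% higher, and the median log2 difference was -0.32 against -0.04 over all genes. The 4 were Ero1l, Sec61a1, Ppp1r15b and P4hb. Ero1l was at 32.8, 30.8 and 31.1 CPM in tumour trained hearts (log2 -2.27 ± 0.64, edgeR adjusted p = 0.049) and Sec61a1 at 39.7, 41.7 and 40.9 CPM (-1.80 ± 0.45, adjusted p = 0.0369). Ppp1r15b was at 37.6, 36.7 and 40.8 CPM (-1.11 ± 0.31, adjusted p = 0.049) and P4hb at 273, 287 and 299 CPM (-0.83 ± 0.23, adjusted p = 0.0496). In Ero1l and Sec61a1 the tumour trained libraries were above tumour 3, in P4hb below it and in Ppp1r15b on both sides of it.

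Among 22 alternatives Sec61a1 was called in 9, Ero1l and Ppp1r15b in 6 and P4hb in 4. Leaving out 1 library other than tumour 3 gave 0 genes lower, where only 3 to 67 of all genes were lower. The exception was trained 2, which gave 1, where 908 of all 13293 genes were lower. With tumour 3 left out, 18 of 34 genes (52.9%) were lower and 2 (5.88%) higher, against 28.1% and 21.7% of all genes, and the 2 higher ones were Dnajb9 (0.76 ± 0.20) and Herpud1 (0.71 ± 0.23). The interaction, which asks whether the tumour difference depends on training, called 0 genes of the 34 higher and 0 lower, beside 0% and 0.0235% of all genes, with 6 of 34 (17.6%) at an unadjusted p below 0.05 against 14.4%. DESeq2 called 0 of the 34 as well, beside 0.344% of all genes higher and 1.76% lower. Without tumour 3 the edgeR fit of the interaction called 14 (41.2%) lower and 1 (2.94%, Herpud1) higher, against 17.7% and 12.4% of all genes. Of the other pathway lists, 20 of 124 genes (16.1%) fell and 1 (0.806%) rose in tumour trained against tumour, where edgeR called 7.25% of all genes lower and 1.79% higher, and 9 of the 20 were in the ATF4 list, led by Phgdh (log2 -5.31 ± 1.11, edgeR adjusted p = 0.0357). Phgdh was at 1.48, 1.62 and 1.37 CPM in tumour trained hearts, below tumour 1 and 2 (129 and 46.0 CPM) and near tumour 3 (1.29 CPM). At such low levels the order against tumour 3 cannot be read. The median log2 difference of the 21 tested genes of the ATF4 list was -1.28 against the tumour group and 0.02 against tumour 3 alone. The gene that rose, named after its value was seen, was Ube2g1, a ubiquitin-conjugating enzyme (0.62 ± 0.15, edgeR adjusted p = 0.0357). Tumour trained hearts had it at 115.6 to 118 CPM, above each of tumour 1, 2 and 3 (62.3, 76.0 and 88.3 CPM). Controls had it at 105.3, 101.3 and 106.1 CPM and trained hearts at 105.5, 89.3 and 109.7 CPM. The tumour libraries thus lay below every library of the other groups.

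Against tumour 3 alone, Herpud1 fell in tumour trained hearts (log2 -1.42 ± 0.14, edgeR adjusted p = 0.000657), called in each of 18 alternatives between -1.50 and -1.30. It was 1 of 34, where 0.593% of all genes were called lower and 0.123% higher, and 0 genes of the 34 rose. The median of the 34 was 0.29, against -0.001 over all genes, and 11 (32.4%) had an unadjusted p below 0.05, against 14.7%. Above tumour 3 in all 3 tumour trained libraries were 22 genes (64.7%), against 37.0% of all genes, and below it 7 (20.6%), against 35.0%.

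Without trained 2 in the estimate of the spread, 9 genes (26.5%) were higher and 1 (2.94%, Herpud1) lower, where edgeR called 6.79% of all genes higher and 5.04% lower. They were Hspa5, Hsp90b1, Canx, Dnajc3, Manf, Pdia3, Pdia4, Pdia6 and Sec61b, and with GC correction as well Canx and Dnajc3 gave way to Calr and Hyou1 (9 higher and 1 lower, against 3.42% and 4.27% of all genes). Manf was at 56.8, 75.0 and 62.1 CPM in tumour trained libraries against 32.9 CPM in tumour 3. All 3 were above the controls as well, and the log2 difference from tumour 3 was 0.96 ± 0.20 in the fit of 10 libraries (edgeR adjusted p = 0.0619) and 0.96 ± 0.15 without trained 2 (adjusted p = 0.00302).

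Training without tumour cells left the 34 genes without a call. In the fit of the 9 libraries without the tumour group, trained against control called 0 higher and 0 lower, beside 0% and 0.00799% of all 12511 genes, with 1 of 34 (2.94%) at an unadjusted p below 0.05 against 7.69%. Manf was above all controls in every trained library (52.945, 68.4 and 54.2 CPM), though trained 1 only just exceeded control 1 (52.915 CPM), and Sel1l below them (99.5, 101.4 and 101.5 CPM), that is 1 gene each way (2.94%), where 4.04% and 5.44% of all genes did so. Tumour trained against trained called 0 genes of the 34 and 0% of all genes in either direction, with 2 of 34 (5.88%) below an unadjusted 0.05 against 7.07%. DESeq2 called 0 of the 34 in both comparisons, beside 0.0879% of all genes higher and 0.248% lower in the first and 0.0959% and 0.0879% in the second.

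Trained 2 stood apart from trained 1 and 3. It was above both in 14 of the 34 genes (41.2%) and below both in 15 (44.1%), against 42.6% and 43.4% of all genes. Hsp90b1 was at 315 and 361 CPM in trained 1 and 3 and 117 CPM in trained 2, while controls were at 186, 199 and 181 CPM. Canx was at 334.1 CPM in both against 173 CPM, and Dnajc3, an inhibitor of PERK, at 59.2 and 61.6 CPM against 30.7 CPM. In each of the 3 genes trained 2 was below all controls and trained 1 and 3 above them. The gap between trained 2 and the other trained libraries went with the GC content of a gene's longest transcript, at r = 0.71 over the 34 genes and 0.72 over 12634 genes. Such a correlation over genes is a description of these libraries and has no p.

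**Figure D4:**
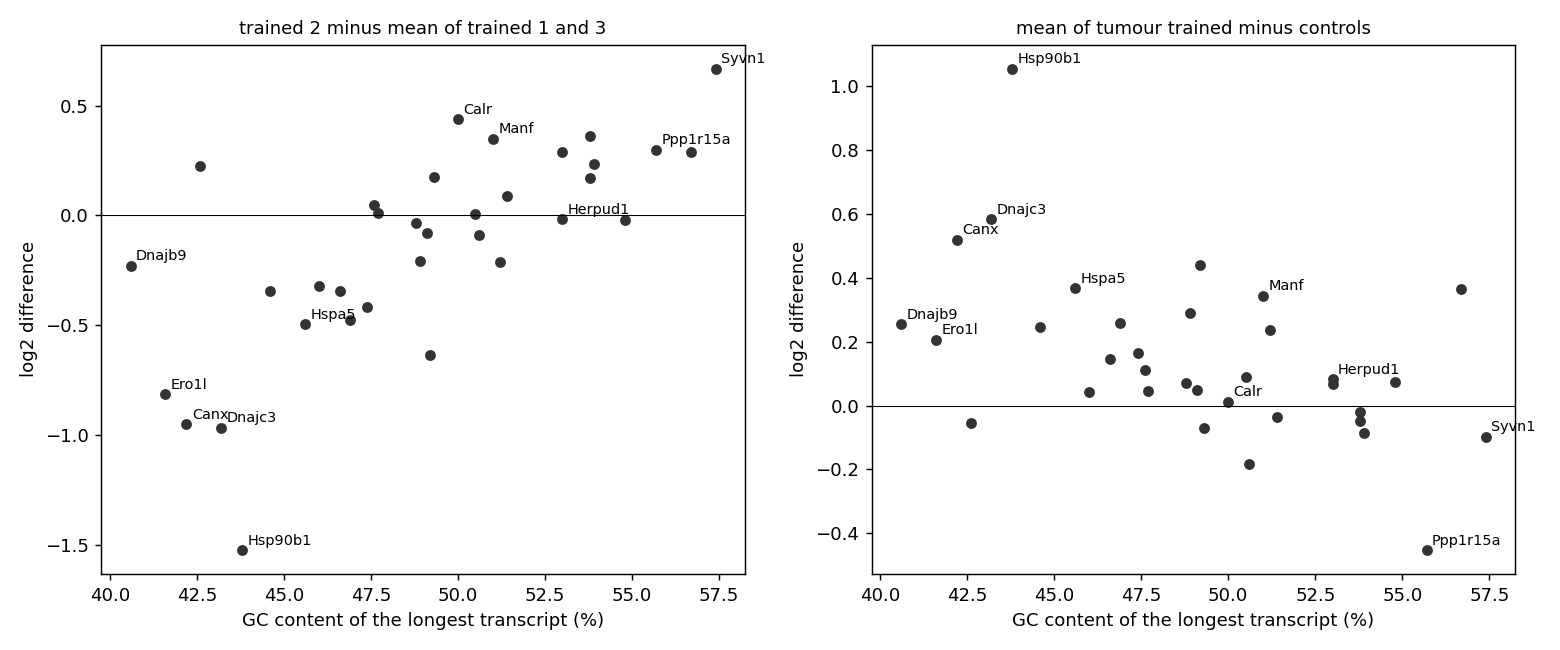
Log2 difference of each gene against the GC content of its longest transcript: trained 2 against the mean of trained 1 and 3 (left) and tumour trained against controls (right). Hsp90b1, Dnajc3 and Canx, at 43.8%, 43.2% and 42.2% GC, are lowest on the left and highest on the right.

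With all 3 trained libraries, Hsp90b1 differed from controls by log2 0.483 ± 0.304 (edgeR adjusted p = 0.739). Dnajc3 differed by 0.216 ± 0.215 (adjusted p = 0.865) and Canx by 0.086 ± 0.204 (adjusted p = 0.965). Leaving out trained 2 removes the only trained library that lay below the controls in these genes, which raises the differences. Without it, Hsp90b1 was called higher in trained hearts (0.83 ± 0.10, edgeR adjusted p = 0.00179), as were Dnajc3 (0.47 ± 0.10, adjusted p = 0.0116) and Canx (0.33 ± 0.09, adjusted p = 0.04). These 3 of 34 (8.82%) and 0 lower compare with 8.66% and 3.26% of all genes, so the share is near the background. The mean of trained 1 and 3 against controls was itself related to GC content, at r = -0.59 over the 34 and -0.54 over all genes. With GC correction beside leaving out trained 2, Hsp90b1 remained called (0.60 ± 0.09, adjusted p = 0.0166), and Dnajc3 (0.21 ± 0.10, adjusted p = 0.276) and Canx (-0.004 ± 0.089, adjusted p = 0.989) were not.

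Tumour trained hearts were last set against controls, which asks whether mice with both differ from mice with neither. In the fit of 9 libraries 0 of the 34 genes rose and 0 fell, beside 0.0240% and 0.0160% of all genes, with 8 of 34 (23.5%) at an unadjusted p below 0.05 against 21.5%. DESeq2 too called 0 of the 34, beside 2.10% of all genes higher and 1.54% lower. In 10 genes (29.4%) all 3 tumour trained libraries exceeded the highest control, where 21.9% of all genes did so, and in 0 they lay under the lowest, where 17.4% did. The 10 were Hspa5, Hsp90b1, Canx, Dnajb9, Dnajc3, Manf, Pdia3, Ero1l, Sec11c, a signal peptidase subunit, and Ssr1, a translocon-associated protein. Hspa5 was at 627, 819 and 792 CPM in tumour trained hearts, all above the highest control of 588 CPM (log2 0.37 ± 0.14, edgeR adjusted p = 0.176). Trained 1 and 3, at 679 and 689.7 CPM, were above the controls as well, and trained 2, at 486 CPM, below. In Hsp90b1 the tumour trained libraries were at 350.4, 385 and 447 CPM, all above the controls and tumour 3 (172 CPM). The log2 difference from controls was 1.06 ± 0.31 (adjusted p = 0.135).

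Markers of other cell types differed between the same libraries. The endothelial list summed to 882 to 932 CPM in tumour trained hearts, below the 1057 to 1078 CPM of controls and the 1032 to 1057 CPM of trained hearts. The melanocyte list was at 76.7 to 81.6 CPM against 56.6 to 67.3 CPM in controls, most of it Mitf (68.1 to 74.5 CPM), while Tyrp1 was at 0. Trained 1, 2 and 3, without melanoma cells, had this list at 70.1, 47.3 and 78.5 CPM. The adipocyte list was at 599.6 to 640.9 CPM against 454.5 to 599.2 CPM in controls, nearly all of it Fabp4. In trained 1, 2 and 3 it was at 605.8, 407.9 and 683.3 CPM, so trained 1 and 3 were above the controls as well. The part of these shifts in the differences of the 34 genes was not tested.

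Without trained 2, 7 of 34 (20.6%) were higher and 0 lower, where edgeR called 13.7% of all genes higher and 8.66% lower. They were Hsp90b1 (1.05 ± 0.09, adjusted p = 0.000298), Dnajc3 (0.58 ± 0.09), Canx (0.50 ± 0.08), Hspa5 (0.37 ± 0.09), Manf (0.35 ± 0.10), Dnajb9 (0.25 ± 0.08) and Ssr1 (0.23 ± 0.08). Differences of tumour trained hearts from controls were lower at higher GC content as well, at r = -0.51 over the 34 genes and -0.60 over all genes. With GC correction too, 2 genes (5.88%) were higher, Hsp90b1 (0.80 ± 0.08, adjusted p = 0.00121) and Manf (0.40 ± 0.10, adjusted p = 0.0331), and 1 (2.94%) lower, Derl2 (-0.40 ± 0.09, adjusted p = 0.0273), against 3.65% and 3.95% of all genes. Under that correction Hspa5 was at 0.21 ± 0.08 (adjusted p = 0.157) and Canx at 0.14 ± 0.08 (adjusted p = 0.31). Dnajb9, the gene with the lowest GC content of the 34 at 40.6%, turned to -0.22 ± 0.08 (adjusted p = 0.128).

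**Figure D5:**
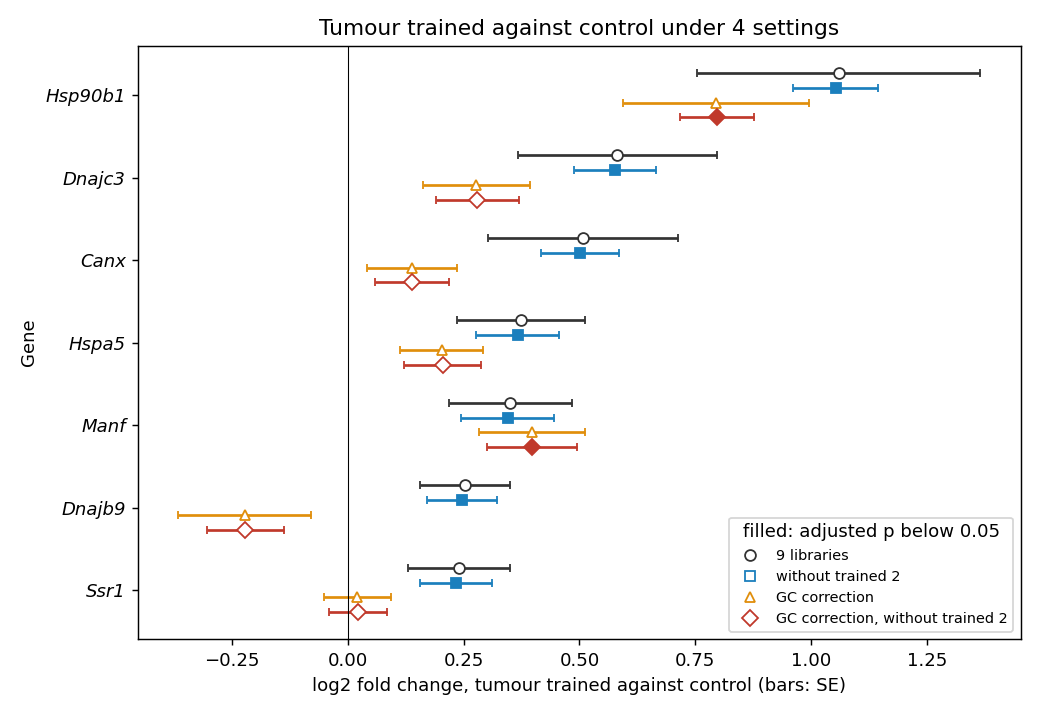
Log2 fold change of tumour trained against control hearts (horizontal, bars are SE) for 7 genes under 4 settings; filled symbols passed at an adjusted p below 0.05. Hsp90b1 stays between 0.79 and 1.06 in all 4, while Canx and Dnajc3 shrink and Dnajb9 changes sign with GC correction.

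None of the 124 tested genes of the other pathway lists was called in trained against control, in tumour trained against trained or in tumour trained against control in the fit of 9 libraries. Their largest list median there was -0.27, that of the ATF4 list in tumour trained against control, in which edgeR called 0 of 21 genes. At an unadjusted p below 0.05 were 9, 13 and 28 of the 124 in the 3 comparisons (7.26%, 10.5% and 22.6%), where 7.69%, 7.07% and 21.5% of all genes were.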

How the data were processed

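The authors deposited 1 table of estimated counts per gene, not normalized. Between 7.09% and 8.92% of a library's values were not whole, and they were rounded. The tools named in the submitters' processing notes are HISAT2 2.2.1 and featureCounts, and the builds are GRCm39 and mm10, without their roles. Overlapping genes cannot be told apart, since the strand setting, like the annotation, is not stated. Genes were matched by symbol, and 24 symbols turned into dates were restored by gene ID.

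Counts were tested with edgeR 4.0.16 (R 4.3.3) by quasi-likelihood with 1 mean per group, TMM scaling and the default filter by group. Fits held 12 libraries, 10 without tumour 1 and 2, or 9 without the tumour group. A call needed an adjusted p below 0.05 (Benjamini-Hochberg, over every gene in the fit). Log2 ratios by library used CPM plus 0.5. The members, lists and fits were chosen with earlier results of these data known. Named genes follow a rule: levels for members called in a comparison and for Hspa5, Xbp1, Ern1, Atf6, Eif2ak3 and Ppp1r15a, and up to 4 called genes per other list. Other members were named after their values were seen. GC content came from the longest GENCODE M21 protein-coding transcript of each gene. GC correction took a smooth curve of GC content out of each library and was chosen after the data were seen. Scripts were tested on simulated data. Libraries of a group differed by more than sampling noise and none was merged. The DESeq2 1.42.0 and other alternatives are in the closing part.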

Additional observations from a re-analysis of the deposited data

How the results depend on the processing

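In all, 725 of 932 alternative values over 45 results were labelled the same as the main fit. For a single gene this meant the same sign and the same side of the threshold. For a count of called genes it meant an equal count or one within a set ratio. For a median it meant a shift smaller than the spread of the median between replicates. Leaving out 1 library gave 0 to 22 genes higher and 0 to 2 lower in tumour against control, with medians of 0.43 to 0.82. It gave 0 to 2 higher and 0 to 18 lower in tumour trained against tumour (medians -0.52 to -0.22), and 0 to 1 higher and 0 to 14 lower in the interaction (-0.57 to -0.24). For tumour 3 against control it gave 1 higher and 0 to 2 lower (-0.10 to -0.06), and for tumour trained against tumour 3, 0 to 9 higher and 1 lower (0.24 to 0.31). Trained against control had 0 to 3 higher (-0.03 to 0.06), tumour trained against trained 0 (0.09 to 0.15), and tumour trained against control 0 to 7 higher. The highest counts came without tumour 3 or without trained 2, and so did the highest counts over all genes.

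In tumour against control 10 genes were higher with DESeq2 (1618 of all 12778 genes) and with library size alone (1716 of 12778). There were 5 without a filter (965 of 17355) and with GC correction (972 of 12778). There were 0 with a stricter filter (27 of 10607), a replicate block (11 of 12778) or only the 2 groups (3 of 12505). The same held with control 2 and 3 left out (1 of 13706) or GC correction with trained 2 left out (12 of 13293). Few genes of any kind were called in the fits with 0, so the 0 says little about the 34. Lower in tumour trained against tumour were 8 with DESeq2 (1793 of all 12778 genes) and 7 with library size alone (1455 of 12778). A stricter filter (455 of 10607) and robust dispersion (801 of 12778) gave 1 each. A replicate block (14 of 12778), only the 2 groups (2 of 12542) or GC correction with trained 2 left out (10 of 13293) gave 0, again with few calls of any kind. Fewer libraries or genes enter some of these; otherwise the cause was not tested. Tumour trained against tumour 3 had 1 higher with DESeq2, library size alone or no filter, 2 with GC correction and 9 with trained 2 left out too. With GC correction 1 gene was lower in tumour 3, and 3 with trained 2 left out too; trained against control then had 1 higher and tumour trained against control 2 higher and 1 lower. Library size alone moved the all-gene median of tumour against control from 0.11 to 0.32 and gave Hspa5, Xbp1 and Atf6 log2 values of 0.20, 0.13 and 0.16, against -0.03, -0.08 and -0.02. Ppp1r15a turned to 0.16 (tumour) and 0.57 (tumour 3) without control 2 and 3, and to 0.002 in tumour 3 with GC correction, with or without trained 2.

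Over leave-one-out fits Hspa5 in tumour against control ranged from -0.11 to 0.021 and Atf6 from -0.20 to 0.16; in tumour 3 Eif2ak3 ranged from -0.021 to 0.14 and Ppp1r15a from -0.24 to 0.19.

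Replicate numbers did not pair the libraries: 3 of 18 same-number pairs correlated over 0.1 (range -0.30 to 0.27), and 1 of 12 libraries correlated best with its own number. The block changed no call of Herpud1 in tumour 3. Depth limits Derl3.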
